A study of Mus musculus with 12 samples.

Results

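Leptin receptor (Lepr), the kinase Jak2, the transcription factor Stat3, the feedback inhibitor Socs3 and the phosphatases Ptpn1 and Ptpn2 were followed through the stromal vascular fraction (SVF) of mouse adipose tissue. The 6 genes were taken by name, as members of the leptin receptor pathway, out of 31053 genes listed in each library. The rule holds no measured value, but the pathway was picked with earlier results of these data known. A further 67 genes of related ligands, receptor chains, JAK kinases, STAT factors, SOCS and PIAS proteins, phosphatases, adaptors and STAT3 targets, in 9 lists, were read beside them.

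Leptin is an adipocyte hormone that binds LEPR, a receptor of the gp130 family with no kinase of its own. JAK2 bound to the receptor phosphorylates it, STAT3 docks and is phosphorylated, and phosphorylated STAT3 enters the nucleus and activates genes, among them Socs3. SOCS3 then blocks the receptor and its kinase, PTP1B (Ptpn1) removes phosphate from JAK2 and TC-PTP (Ptpn2) acts on nuclear STAT and JAK proteins. The same STAT3 and SOCS3 also serve interleukin-6 and related cytokines, so a Socs3 transcript does not name its receptor. In addition, Socs3 is an immediate early gene that rises while tissue is digested.

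Single-cell RNA was sequenced from epididymal (eWAT) and inguinal (iWAT) white fat of male mice aged 12 weeks. WT-Veh animals were C57BL/6J mice given methylcellulose vehicle, ob/ob-Veh animals were Lepob/Lepob mice given vehicle, and ob/ob-Rosi animals were Lepob/Lepob mice given 30 mg/kg rosiglitazone, a PPARγ agonist, all by gavage each morning and evening for 3 days. Both ob/ob groups lack functional leptin and carry an intact Lepr gene, so no group here had leptin replaced, and rosiglitazone was not given to wild-type mice. Each depot and group had 2 libraries, 12 in all, each from 1 mouse. The labels do not say whether eWAT and iWAT libraries came from the same mice. Tissue was digested with collagenase, and floating adipocytes, the main source of leptin, were removed.

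Libraries held 40933057 to 92475986 unique molecular identifiers (UMIs) in eWAT and 20132553 to 66818914 in iWAT, and 57613 eWAT and 68482 iWAT cells were kept. Cell classes were rebuilt by clustering without the 6 genes and named from markers, with the suffix "-like". Levels are UMIs per 1000000 UMIs of a class in a library (CPM). They are 3′ counts that were not divided by gene length, so levels are compared within a gene and not between genes. iWAT WT-Veh replicate 1 stood apart with a median of 1132 UMIs per cell, 417 adipocyte progenitor cell (APC)-like cells and 7131 cells that no marker list named. No 2 libraries shared more than 1.05% of the barcodes of the smaller one. The ob allele changes the coding sequence and not the 3′ end that was counted, so Lep counts do not check the genotype labels. With 2 mice against 2, the smallest p of an exact permutation test is 0.333, so tests rest on the edgeR quasi-likelihood fit across all genes of a class (3 residual degrees of freedom within a depot and 6 over both depots). Called genes had an adjusted p up to 0.05 and differed 1.1-fold or more.

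Lepr was sparse in the SVF. In eWAT 221 Lepr UMIs were found in 188 of 57613 cells (0.326%), and in iWAT 172 UMIs in 131 of 68482 cells (0.191%). The gene lies on the plus strand of chr4:101717404-101815352 (GRCm38), and its 4 coding transcripts end at 4 different 3′ positions, but the deposited counts are summed per gene, so the long signalling form and the short ones were not separated. T/NK/ILC-like cells, which served as the background class, held Lepr in 2 of 3035 eWAT cells (0.0659%, median depth 1783 UMIs) and in 2 of 6311 iWAT cells (0.0317%, median 1403 UMIs).

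One small eWAT cluster stood far above that background. It held 136 lymphatic endothelial (LEC)-like cells, and its leading genes were Ccl21a, Mmrn1, Reln, Flt4 and Prox1, the last being the transcription factor that specifies lymphatic identity. Lepr was found in 37 of the 136 cells (27.2%, exact 95% interval 19.9 to 35.5%) at a median depth of 3442 UMIs. After thinning every cell to 700 UMIs the share was 10 of 136 (7.35%) against 1 of 3035 (0.033%) in T/NK/ILC-like cells. These 136 cells carried 56 of the 221 eWAT Lepr UMIs (25.3%).

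The LEC-like level was 29.6 CPM (2 UMIs) in WT-Veh replicate 1 and 79.3 and 92.7 CPM (24 and 30 UMIs) in the ob/ob-Veh libraries. Cells were spread unevenly, with 32 in WT-Veh replicate 1, none in WT-Veh replicate 2, 37 and 64 in ob/ob-Veh and 3 and none in ob/ob-Rosi. The class therefore had no test between groups. Other eWAT endothelial-like cells had 7 Lepr UMIs in 2799 cells (0.25%), and a median of 0 lymphatic markers with a UMI per cell against 5 in the LEC-like cluster.

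Mesothelial-like cells, which line the epididymal pad, came next in eWAT. They held Lepr in 27 of 1456 cells (1.85%, exact interval 1.23 to 2.69%) at a median depth of 5942.5 UMIs, and in 0.343% after thinning. Their levels were 2.05 and 0 CPM in WT-Veh, 3.48 and 2.53 CPM in ob/ob-Veh and 2.11 and 2.38 CPM in ob/ob-Rosi, uppermost in ob/ob-Veh, and these few UMIs were below the filter for a test. The LEC-like level was higher than the mesothelial-like level in 3 of 3 libraries that had both, with no overlap, and every other pair of neighbouring classes in the order of Lepr levels overlapped.

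**Figure D1:**
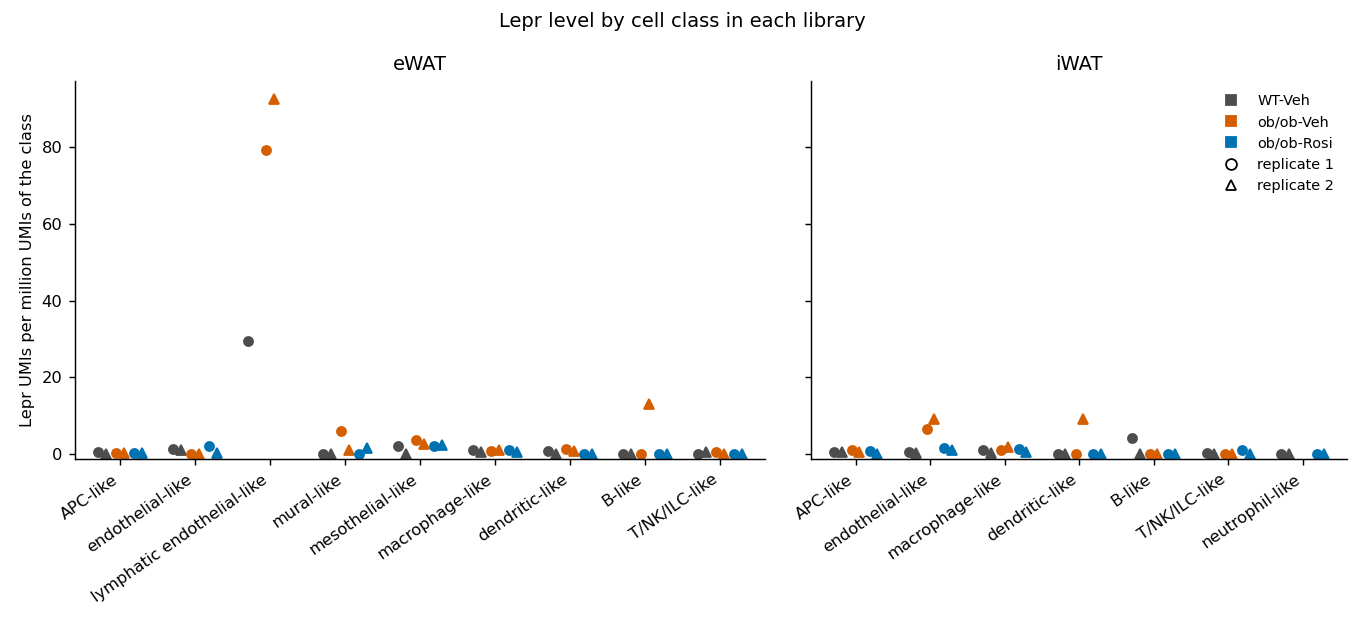
Lepr level in CPM of the class, by cell class and library, in eWAT (left) and iWAT (right); grey is WT-Veh, orange ob/ob-Veh, blue ob/ob-Rosi, circles replicate 1 and triangles replicate 2, with 1 point per library. The eWAT lymphatic endothelial-like libraries sit at 29.6 to 92.7 CPM, while eWAT mesothelial-like libraries lie at 0 to 3.48 CPM.

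APC-like cells, the fibroblast-like adipocyte progenitors, held 18 Lepr UMIs in 16 of 17663 eWAT cells (0.0906%), close to the T/NK/ILC-like share. In iWAT they held 37 UMIs in 22 cells (0.112%), and 14 of the 37 UMIs came from 2 cells. Macrophage-like cells held a larger share, with 95 UMIs in 85 of 27800 eWAT cells (0.306%, 0.0576% after thinning) and 66 UMIs in 53 of 23284 iWAT cells (0.228%, 0.0687% after thinning). Their eWAT levels were 1.02 and 0.529 CPM in WT-Veh, 0.721 and 0.951 CPM in ob/ob-Veh and 0.885 and 0.323 CPM in ob/ob-Rosi, and the 3 groups overlapped. No Lepr UMI was found in 66 eWAT mast-like cells or in 188 iWAT neutrophil-like cells.

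In iWAT no cluster took the LEC-like name, and endothelial-like cells held 46 Lepr UMIs in 38 of 8899 cells (0.427%, 0.191% after thinning). Levels were 0.391 and 0.138 CPM in WT-Veh (2 and 1 UMIs), 6.41 and 9.11 CPM in ob/ob-Veh (2 and 16 UMIs) and 1.37 and 0.961 CPM in ob/ob-Rosi (16 and 9 UMIs). The groups did not overlap, but neither ob/ob-Veh against WT-Veh (log2 4.66, SE 0.94, adjusted p = 0.0628) nor ob/ob-Rosi against ob/ob-Veh (log2 −2.53, SE 0.76, adjusted p = 0.15) passed the test. The first was called with DESeq2 (adjusted p = 0.0101), with library totals (0.0409), without the low-count filter (0.0023) and at Leiden resolution 0.5 (0.0312). It was not called by edgeR in thinned cells (0.226), at resolution 2 (0.0588), with doublets removed (0.0584) or in cells low in dissociation genes (0.0809). Both were called without either WT-Veh library (adjusted p = 0.00885 to 0.0446) and neither without any 1 of the 4 ob/ob libraries (0.119 to 0.765). Of the 46 UMIs, 45 lay in 1 of the 3 endothelial-like clusters, in which 41.1% of cells held Rgs5, a mural cell gene. The other 2 clusters held Rgs5 in 29.4% and 6.15% of cells, and the median cell of all 3 held 0 lymphatic markers. The cluster with the 45 UMIs took 65 of 110 and 303 of 639 endothelial-like cells in ob/ob-Veh and 60 of 2653 and 196 of 1159 in WT-Veh. In ob/ob-Rosi it took 2103 of 2114 and 2210 of 2224. Its share was thus highest in ob/ob-Rosi and lowest in WT-Veh, while the Lepr level was highest in ob/ob-Veh. The part of these shares was not tested. In macrophage-like cells, the other class in which Lepr could be tested, Lepr was not called in either depot, with log2 changes of −0.11 (ob/ob-Veh against WT-Veh) and −0.31 (ob/ob-Rosi against ob/ob-Veh) in eWAT and 0.98 and −0.50 in iWAT.

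Over 91 class and library sums, the genes whose levels most resembled Lepr were Mmrn1, Scn3a, Prox1, Reln and Gm21541, with Pearson correlations of log2(CPM + 1) of 0.757, 0.725, 0.718, 0.703 and 0.694. Of these, Mmrn1, Prox1 and Reln also led the LEC-like cluster, and all sums share libraries and depth. Leprot, a neighbouring gene on chr4:101647718-101659364 that lowers surface LEPR, was not called in any class, with eWAT APC-like levels of 93.3 and 125.5 CPM in WT-Veh, 81.7 and 95 CPM in ob/ob-Veh and 111.1 and 148.3 CPM in ob/ob-Rosi.

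Downstream of the receptor, the genes were read in nearly every class. In eWAT 41 of 48 possible pairs of gene and cell class (8 classes) could be tested. Against WT-Veh, 6 of the 41 rose in ob/ob-Veh and none fell, while 8.3% of all gene tests in these classes were called in either direction and 3.69% of all gene tests were called upward. Against ob/ob-Veh, 9 of the 41 fell in ob/ob-Rosi and none rose, with 8.15% of all tests called in either direction and 3.69% of all tests called downward. At an unadjusted p below 0.05 the counts were 15 and 19. All genes gave 2877 and 3034 of 13226 in APC-like cells at that cut. In macrophage-like cells all genes gave 5554 and 5648 of 13550. With 1 library left out the 6 became 0 without WT-Veh replicate 1, 3 without WT-Veh replicate 2 and 2 without ob/ob-Veh replicate 1, and the 9 became 4 without ob/ob-Rosi replicate 2 and 5 without ob/ob-Veh replicate 1. In low-dissociation cells, those at or below the depot's median share of UMIs from dissociation genes, 2 and 1 of 38 were called, all Jak2 or Stat3 in macrophage-like cells. The comparisons share the ob/ob-Veh libraries, so a high value there enters both. Between ob/ob-Rosi and WT-Veh, 0 of 41 were called by edgeR, 0 by DESeq2 and 0 at an unadjusted p below 0.05, where 0.0911% of all tests were called.

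**Figure D2:**
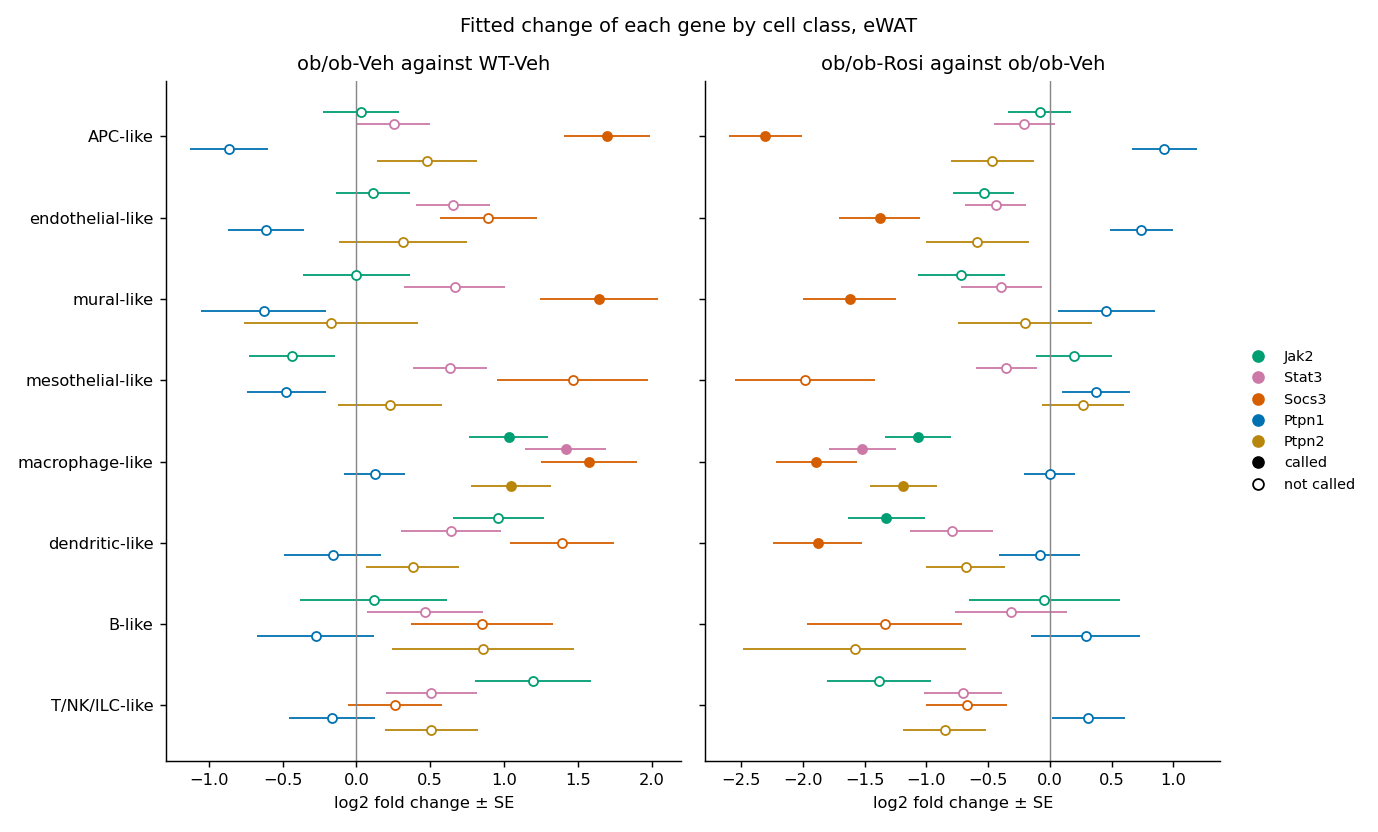
Fitted log2 fold change with its standard error for Jak2, Stat3, Socs3, Ptpn1 and Ptpn2 by eWAT cell class, ob/ob-Veh against WT-Veh (left) and ob/ob-Rosi against ob/ob-Veh (right), from 2 mice per group; filled points were called and open points were not. Filled points lie to the right of 0 on the left panel and to the left of 0 on the right panel, and Socs3 has most of them.

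Socs3 carried most of these calls. It lies on the minus strand of chr11:117966079-117970047 (GRCm38). A sequence of the form TTCNNNGAA, the palindromic element that STAT proteins bind, was sought in the RefSeq promoters of the genes (250 bases before to 50 after the start, GRCm38.p6). It is shown because Socs3 was the only member with a match, among 6 promoters of 5 members. The capitals mark the match, and the form is its own reverse complement, so both strands were searched at once.
Socs3 promoter: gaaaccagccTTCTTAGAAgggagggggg
The stretch is chr11:117969502-117969530, printed along the minus strand, and the match at 117969512 to 117969520 lies 146 to 154 bases before the RefSeq start. The reference annotation places it inside the Socs3 gene and a Socs3 transcript but in no exon. The same motif occurs in 2726 of 32851 promoters (8.3%), and a match is a string of letters and not evidence of binding. Ptpn2 had no entry.

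In eWAT APC-like cells Socs3 stood at 200.6 and 236.2 CPM in WT-Veh, 819 and 638.8 CPM in ob/ob-Veh and 157.8 and 132.8 CPM in ob/ob-Rosi. Both ob/ob-Veh libraries were above all others, and ob/ob-Rosi lay below WT-Veh without being called against it. Socs3 was 3.25-fold higher in ob/ob-Veh than in WT-Veh (log2 1.70, SE 0.29, adjusted p = 0.00634) and 4.94-fold lower in ob/ob-Rosi than in ob/ob-Veh (log2 −2.30, SE 0.30, adjusted p = 0.00139). Of all genes in this class, 7.33% and 8.32% were called in these comparisons. The rise was lost without WT-Veh replicate 1 (adjusted p = 0.0734), WT-Veh replicate 2 (0.0506) or ob/ob-Veh replicate 1 (0.0757), while the fall was called without each of the 6 libraries in turn.

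APC-like cells were divided into progenitor-like (marked by Dpp4 and Pi16), preadipocyte-like and other states. Progenitor-like Socs3 was 111.6 and 204.8 CPM in WT-Veh, 687.6 and 634.3 CPM in ob/ob-Veh and 85.5 and 63.9 CPM in ob/ob-Rosi. It rose 4.14-fold (adjusted p = 0.00221) and fell 8.67-fold (log2 −3.12, SE 0.35, adjusted p = 0.000226), where 5.01% and 4.84% of genes were called. The rise was lost without WT-Veh replicate 1 (adjusted p = 0.07), and neither was called in low-dissociation cells (log2 0.57 and −0.65). Nearly all progenitor-like cells of ob/ob-Veh came from 1 sub-cluster (1585 and 600 cells) and those of the other groups from another (359 and 220 cells in WT-Veh, 331 and 168 in ob/ob-Rosi). Preadipocyte-like cells were too few in eWAT ob/ob-Veh to test.

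A further APC sub-cluster, led by Il6 and with no name, made up 25% and 21.1% of the APC-like cells of the ob/ob-Veh mice (1039 and 643 cells) and 0 to 0.32% elsewhere in eWAT. Its Socs3 level was 1738 and 1543 CPM, and it held 56.1% and 60.7% of the APC-like Socs3 UMIs of those libraries. Outside it, ob/ob-Veh APC-like cells had 488.7 and 335.1 CPM, still above every WT-Veh and ob/ob-Rosi library. With the sub-cluster left out, Socs3 was no longer called against WT-Veh (log2 0.86, adjusted p = 0.129) but was still lower in ob/ob-Rosi than in ob/ob-Veh (log2 −1.46, adjusted p = 0.0175). The same cells had the highest share of dissociation genes, with 3.22% and 3.08% of their UMIs.

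Macrophage-like cells showed Socs3 differences of the same sign. Levels were 54 and 107 CPM in WT-Veh, 221.2 and 321 CPM in ob/ob-Veh and 53.5 and 71.1 CPM in ob/ob-Rosi, with no overlap between ob/ob-Veh and the rest. Socs3 rose 2.98-fold (log2 1.57, SE 0.32, adjusted p = 0.00838) and fell 3.71-fold (log2 −1.89, SE 0.33, adjusted p = 0.00383), in a class where 26.8% and 28.4% of genes were called. The fall was called without each of the 6 libraries in turn, while the rise was lost without WT-Veh replicate 1.

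Socs3 calls came from 4 further eWAT classes and states. Mural-like cells (pericytes and smooth muscle) rose 3.12-fold (adjusted p = 0.0405) and fell 3.08-fold (adjusted p = 0.0235), from 36.4 and 86.2 CPM in WT-Veh to 202.8 and 252.1 CPM in ob/ob-Veh and 41.4 and 88.9 CPM in ob/ob-Rosi, beside 1.59% and 1.8% of all genes. The rise was lost without any 1 of the WT-Veh or ob/ob-Veh libraries (adjusted p = 0.0521 to 0.251), and the fall without either ob/ob-Rosi library or ob/ob-Veh replicate 2 (0.0594 to 0.207). DESeq2 called neither (adjusted p = 0.0977 and 0.103), and in low-dissociation mural-like cells Socs3 was below the filter for a test. The leading genes of that cluster included the adipocyte genes Car3, Cfd and Cidec. Dendritic-like cells fell 3.68-fold (adjusted p = 0.0136), from 217.4 and 354.8 CPM in ob/ob-Veh to 50.5 and 87.1 CPM in ob/ob-Rosi, beside 1.49% of genes, and the difference from WT-Veh (89.7 and 95.7 CPM) did not pass (adjusted p = 0.069). This fall was lost without ob/ob-Veh replicate 2 (adjusted p = 0.143) and in low-dissociation cells (log2 −0.94, adjusted p = 0.538). In endothelial-like cells the fall was 2.60-fold (adjusted p = 0.0289), from 124.1 and 113.6 CPM to 37.9 and 48.5 CPM. The adipocyte marker list moved with it in the same sums, at 1027 and 623.4 CPM in ob/ob-Veh against 14.7 to 37.2 CPM in the other libraries, and its part was not tested. The endothelial-like difference from WT-Veh (34.9 and 80.9 CPM) did not pass (adjusted p = 0.118). Of all genes in endothelial-like cells, 7.12% and 4.64% were called in these comparisons. The endothelial-like fall was lost without ob/ob-Rosi replicate 2 (adjusted p = 0.0556) or ob/ob-Veh replicate 1 (0.101) and with doublets removed (0.14). Non-perivascular macrophage (NPVM)-like cells fell 2.70-fold (adjusted p = 0.00397) from 174.4 and 209.7 CPM to 56.5 and 77.5 CPM, beside 7.93% of all genes in that state. In low-dissociation NPVM-like cells the direction turned (log2 0.10), and at Leiden resolution 2 the fall was not called (log2 −0.57, adjusted p = 0.482).

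**Figure D3:**
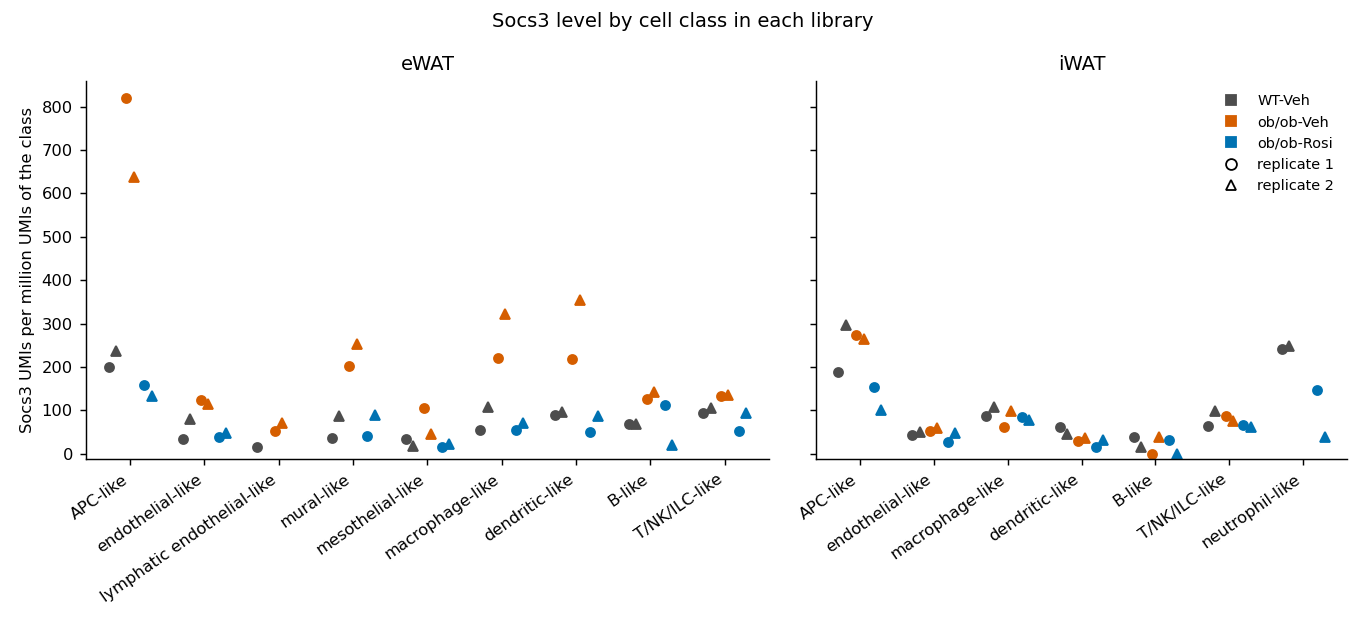
Socs3 level in CPM of the class, by cell class and library, in eWAT (left) and iWAT (right); colours mark the groups, circles replicate 1 and triangles replicate 2, with 1 point per library. In eWAT APC-like cells ob/ob-Veh reaches 638.8 and 819 CPM against 132.8 to 236.2 CPM in the other 4 libraries, whereas iWAT APC-like libraries lie between 99.6 and 296.7 CPM with WT-Veh and ob/ob-Veh overlapping.

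The dissociation response moved with Socs3. A list of 16 dissociation genes, without Socs3, took a median of 1.6% and 1.06% of the UMIs of eWAT APC-like cells in ob/ob-Veh, against 0.428% and 0.466% in WT-Veh and 0.422% and 0.349% in ob/ob-Rosi. In eWAT macrophage-like cells the medians were 2.87% and 2.41% in ob/ob-Veh against 0.649 to 0.934% in the other libraries. Of the 16 genes, 5 rose and 5 fell in APC-like cells in the respective comparisons (median log2 0.59 and −0.93), and 10 rose and 11 fell in macrophage-like cells (median log2 1.20 and −1.44). The medians over all genes tested in these fits lay between −0.013 and 0.003, and 7.33% and 8.32% of genes in APC-like cells and 26.8% and 28.4% in macrophage-like cells were called. Hspa1a, a heat shock gene, rose in eWAT APC-like cells (log2 1.21, adjusted p = 0.0248) and macrophage-like cells (log2 1.95, adjusted p = 0.00353) and fell in both in ob/ob-Rosi (log2 −1.11 and −1.92). Junb rose (log2 1.22, adjusted p = 0.00611) and fell (log2 −1.59, adjusted p = 0.00204) in macrophage-like cells and was not called in APC-like cells. Fos was called in 1 of these 4 tests, as a fall in eWAT macrophage-like cells (log2 −0.86, adjusted p = 0.037). Endothelial-like medians lay between 0.397 and 0.523% in all 6 eWAT libraries, with ob/ob-Veh at 0.457 and 0.485%. Endothelial-like Junb (1181 and 1020 CPM against 647.1 to 910.9 CPM) and Hspa1a (93.5 and 38.1 CPM against 20.9 to 36 CPM) were highest in ob/ob-Veh, whereas Fos was 703.6 and 699.6 CPM there, 747 and 825.7 CPM in WT-Veh and 492.3 and 674 CPM in ob/ob-Rosi. None of the 3 was called in endothelial-like cells.

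When only cells at or below the depot's median dissociation share were kept (0.739% in eWAT), the Socs3 differences in APC-like cells were gone. Levels were then 48.7 and 44.7 CPM in WT-Veh, 51.4 and 53.7 CPM in ob/ob-Veh and 36.4 and 60.2 CPM in ob/ob-Rosi, and the fitted log2 change in ob/ob-Rosi against ob/ob-Veh was 0.01. In low-dissociation macrophage-like cells ob/ob-Veh still had the highest levels, 36.6 and 36.4 CPM against 21.6 to 26 CPM in the other libraries, but no call remained. Low-dissociation endothelial-like cells had 31.6 and 36 CPM in ob/ob-Veh, 23.4 and 25.1 CPM in ob/ob-Rosi and 12 and 23.9 CPM in WT-Veh, and their fall was not called (log2 −0.43, adjusted p = 0.488). The cut kept 1330 of 4154 and 1276 of 3051 APC-like cells in ob/ob-Veh, and 2363 of 3699 and 1025 of 1703 in WT-Veh. Of macrophage-like cells it kept 276 of 2888 and 208 of 2484, against 4278 of 8820 and 1277 of 2986. In ob/ob-Veh the dissociation share was 0.387% and 0.432% in an APC sub-cluster marked by Fmo2 and Myoc. It was 1.82% and 1.56% in the main progenitor-like one. The part of such states in the low-dissociation values was not tested. Whether dissociation genes and Socs3 followed a shared signal in the tissue or during digestion was not tested.

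**Figure D4:**
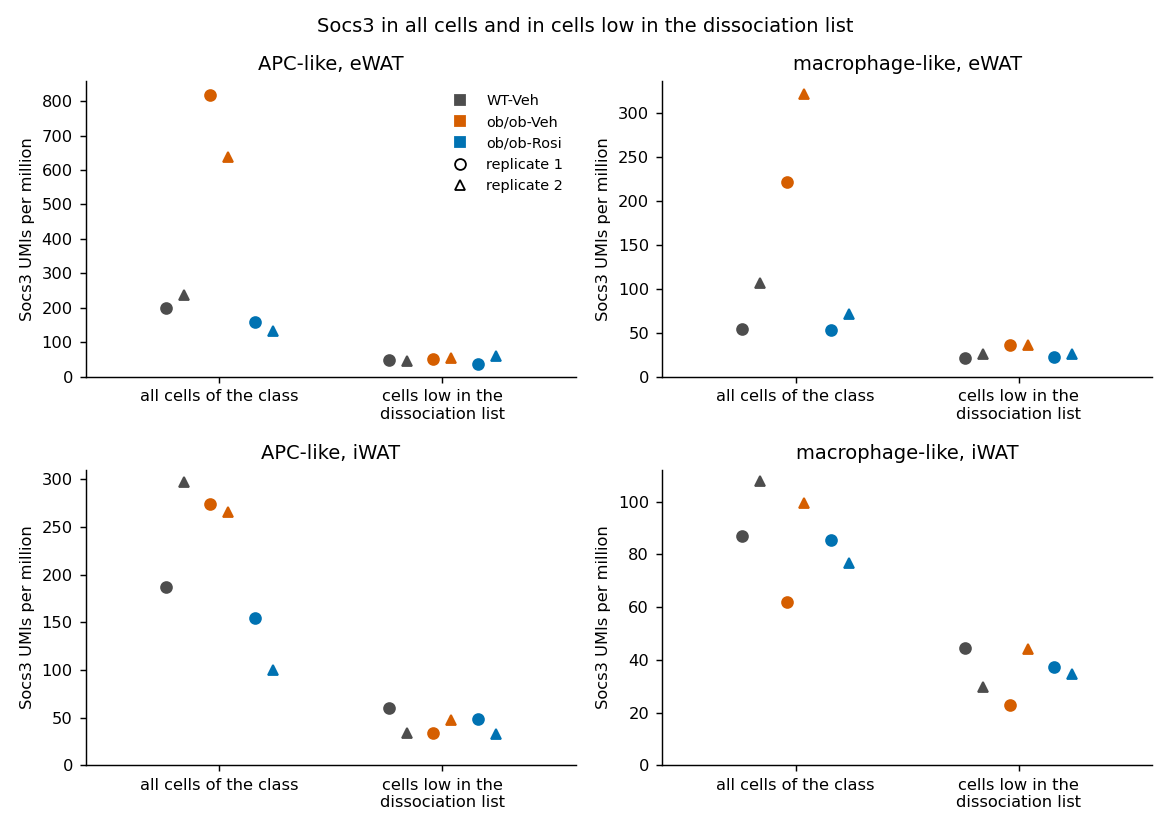
Socs3 level in CPM in all cells and in cells low in the dissociation list, for APC-like and macrophage-like cells of eWAT (top) and iWAT (bottom); colours mark groups, circles replicate 1 and triangles replicate 2. The gap between ob/ob-Veh and the other eWAT APC-like libraries, 638.8 and 819 against at most 236.2 CPM in all cells, is absent in low-dissociation cells, where all 6 lie between 36.4 and 60.2 CPM.

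Stat3, the transcription factor of the pathway, changed in macrophage-like cells. Its eWAT levels were 104.7 and 175.1 CPM in WT-Veh, 352.5 and 494.1 CPM in ob/ob-Veh and 139.9 and 114 CPM in ob/ob-Rosi, with no overlap between ob/ob-Veh and the rest. It rose 2.67-fold (log2 1.42, SE 0.27, adjusted p = 0.00653) and fell 2.86-fold (log2 −1.52, SE 0.27, adjusted p = 0.00442). The fall was called without each library in turn, and the rise was lost without WT-Veh replicate 1. Stat3 of eWAT APC-like cells stayed between 131.9 and 174.4 CPM and was not called (log2 0.25 and −0.21). In endothelial-like cells ob/ob-Veh had 243.9 and 208.7 CPM against 133.1 to 175.2 CPM elsewhere, which did not pass (log2 0.66, adjusted p = 0.131, against WT-Veh).

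Jak2 and Ptpn2 were called in the same class. Jak2 was 16.1 and 18.5 CPM in WT-Veh, 46.5 and 33 CPM in ob/ob-Veh and 19.3 and 13.7 CPM in ob/ob-Rosi, a 2.04-fold rise (adjusted p = 0.0198) and a 2.10-fold fall (adjusted p = 0.0159). Ptpn2 was 23.4 and 20.1, 57.2 and 44.5, and 23.5 and 15.5 CPM in these groups, a 2.07-fold rise (adjusted p = 0.0196) and a 2.28-fold fall (adjusted p = 0.0114). Both genes had ob/ob-Veh above every other library. Their rises were lost without WT-Veh replicate 1, WT-Veh replicate 2 or ob/ob-Veh replicate 1, and their falls without ob/ob-Rosi replicate 2 or ob/ob-Veh replicate 1. Both Jak2 calls were also lost after thinning and at Leiden resolution 0.5. In low-dissociation macrophage-like cells Jak2 was still called in both comparisons (log2 1.27, adjusted p = 0.0106, and log2 −1.25, adjusted p = 0.0129). Stat3 was called against WT-Veh (log2 0.73, adjusted p = 0.0474) but not in ob/ob-Rosi against ob/ob-Veh (log2 −0.63, adjusted p = 0.0884), and Ptpn2 was called in neither (log2 0.52, adjusted p = 0.27, and log2 −0.64, adjusted p = 0.181). Ptpn1 was not called in macrophage-like cells (log2 0.12 and 0.00), with 146.5 and 168.6 CPM in WT-Veh, 189.6 and 199.2 CPM in ob/ob-Veh and 158.1 and 175.7 CPM in ob/ob-Rosi.

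The states that made up the macrophage-like class differed between groups. Lipid-associated macrophage (LAM)-like cells, lipid-handling cells marked by Trem2 and Cd9, numbered 4336 and 1705 in WT-Veh, 45 and 75 in ob/ob-Veh and 2727 and 3525 in ob/ob-Rosi. These are counts of sequenced cells. The paper also found few LAMs in ob/ob-Veh by sequencing and hypothesized that, being rich in lipid, they had floated off with the adipocytes. Its flow cytometry gave fewer LAMs in ob/ob mice after rosiglitazone in both depots. LAM-like Stat3 was 78.7 and 119.6 CPM in WT-Veh and 95.7 and 98.8 CPM in ob/ob-Rosi. In the few LAM-like cells of ob/ob-Veh it was 66.3 and 229.2 CPM (14 and 126 UMIs). Perivascular macrophage (PVM)-like cells had 228.7 and 348.4 CPM in WT-Veh, 443.4 and 547 CPM in ob/ob-Veh and 305.8 and 320.1 CPM in ob/ob-Rosi. No member was called between groups within PVM-like cells, whose ob/ob-Veh cells came almost wholly from 1 cluster (1847 and 1827 cells) that held 3 to 35 cells in each other library.

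With LAM-like and proliferating cells left out, Stat3, Socs3, Jak2 and Ptpn2 were no longer called in macrophage-like cells in either comparison. Adjusted p ranged from 0.084 to 0.214 for the first comparison and from 0.078 to 0.168 for the second. The log2 differences from WT-Veh were 0.60 for Stat3, 0.74 for Socs3, 0.70 for Jak2 and 0.88 for Ptpn2, against 1.42, 1.57, 1.03 and 1.05 with all cells, so the Ptpn2 difference was nearly as large. Those of ob/ob-Rosi from ob/ob-Veh were −0.67, −1.1, −0.83 and −0.84, against −1.52, −1.89, −1.07 and −1.19. Stat3 then stood at 211.7 and 323.1 CPM in WT-Veh, 364.2 and 506 CPM in ob/ob-Veh and 262 and 236.3 CPM in ob/ob-Rosi, and ob/ob-Veh was still above all other libraries for each of the 4 genes. In NPVM-like cells Stat3 (1.89-fold, adjusted p = 0.0491) and Jak2 (3.26-fold, adjusted p = 0.00164) were lower in ob/ob-Rosi than in ob/ob-Veh. In low-dissociation NPVM-like cells the direction turned for Stat3 (log2 0.06), as it did for Socs3, whereas Jak2 was still called (log2 −1.50, adjusted p = 0.0352). Both NPVM-like calls, of Stat3 and of Jak2, were lost after thinning and at Leiden resolution 2. NPVM-like Jak2 was 47.2 and 34.9 CPM in WT-Veh, 82.2 and 67.5 CPM in ob/ob-Veh and 25.6 and 17.5 CPM in ob/ob-Rosi.

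**Figure D5:**
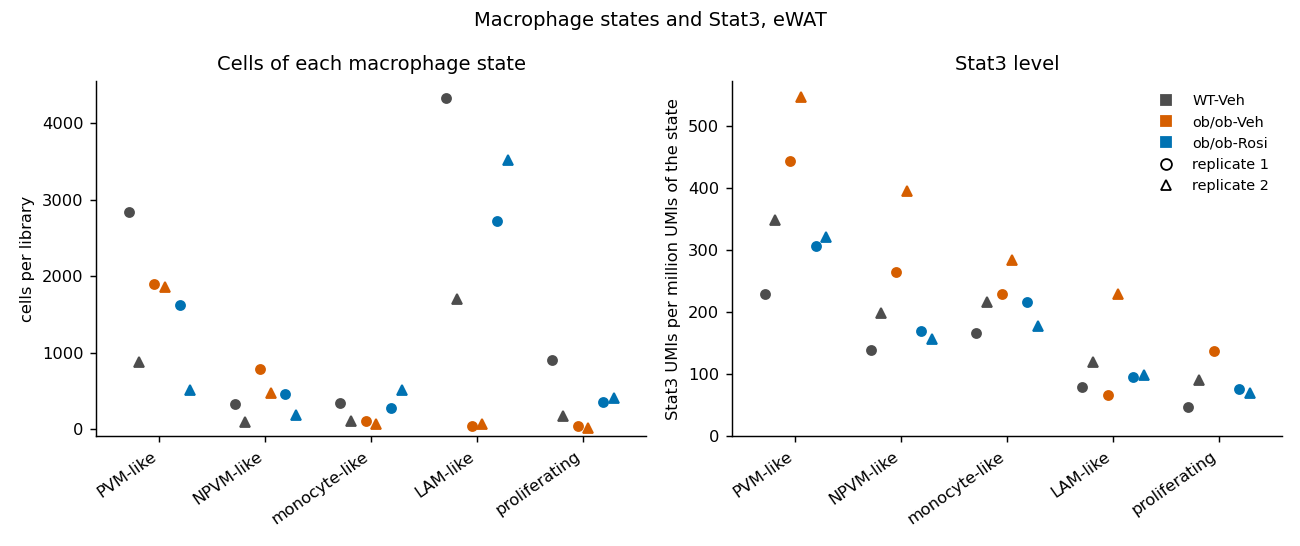
Cells per library in each eWAT macrophage state (left) and Stat3 level in CPM of the state (right); grey is WT-Veh, orange ob/ob-Veh, blue ob/ob-Rosi, circles replicate 1 and triangles replicate 2, with levels only for states of at least 20 cells. LAM-like cells number 45 and 75 in ob/ob-Veh against 1705 to 4336 elsewhere, and Stat3 in PVM-like cells lies at 228.7 to 547 CPM.

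Dendritic-like cells had the highest Jak2 of the eWAT classes. Jak2 there was 128.6 and 122.9 CPM in WT-Veh, 303.6 and 267.7 CPM in ob/ob-Veh and 134.9 and 82.2 CPM in ob/ob-Rosi, and it fell 2.50-fold in ob/ob-Rosi against ob/ob-Veh (adjusted p = 0.0435). The call was kept in 1 of 6 fits that each left out 1 library, and the difference from WT-Veh did not pass (log2 0.96, adjusted p = 0.154). T/NK/ILC-like cells had 63 and 51.1 CPM in WT-Veh, 159.8 and 126.6 CPM in ob/ob-Veh and 92.4 and 31.4 CPM in ob/ob-Rosi, which was not called (adjusted p = 0.0977 and 0.0835). eWAT APC-like Jak2 lay between 26.3 and 35.4 CPM in all 6 libraries (log2 0.03 and −0.08).

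Ptpn1, the phosphatase that acts on JAK2, was lowest in ob/ob-Veh in eWAT APC-like and endothelial-like cells but was not called. In APC-like cells it was 80.1 and 77.2 CPM in WT-Veh, 42 and 48.5 CPM in ob/ob-Veh and 69.3 and 96.6 CPM in ob/ob-Rosi (log2 −0.87, adjusted p = 0.0773, and log2 0.93, adjusted p = 0.0563). In endothelial-like cells it was 99.9 and 90.1, 70.5 and 61.7, and 107.9 and 103.4 CPM in these groups (adjusted p = 0.168 and 0.119). The ob/ob-Veh libraries did not overlap with the others in either class. Macrophage-marker genes moved with Ptpn1 in the APC-like sums, at 386.8 and 631.6 CPM in ob/ob-Veh against 1768 to 2647 CPM in the other libraries, and in the endothelial-like sums, at 2639 and 1810 CPM against 5261 to 6934 CPM. The sub-clusters also differed. Preadipocyte-like cells, with 81.6 to 98.3 CPM of Ptpn1, numbered 12 and 7 in ob/ob-Veh and 591 to 1886 elsewhere, and Fmo2-Myoc stromal-like cells, with 44 and 43.6 CPM, numbered 1424 and 1724 in ob/ob-Veh and 1 to 9 elsewhere. The part of these values in the Ptpn1 result was not tested.

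In iWAT fewer differences were called. Of 30 gene and class pairs tested in 6 classes, 0 were called in ob/ob-Veh against WT-Veh by edgeR, beside 3.94% of all tests. DESeq2 called 1, and 2 had an unadjusted p below 0.05 by edgeR. That unadjusted p was met by 2283 of 13570 genes in APC-like cells and 4371 of 13460 in macrophage-like cells. In ob/ob-Rosi against ob/ob-Veh, 2 fell and none rose, beside 6.58% of all tests called in either direction and 2.77% of all tests called downward. Between ob/ob-Rosi and WT-Veh 0 were called by edgeR (3 at an unadjusted p below 0.05, 0 by DESeq2), and 0% of all tests were called. There the unadjusted p was met by 401 of 13570 genes in APC-like cells and 653 of 13460 in macrophage-like cells.

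Both falls were of Stat3. In iWAT macrophage-like cells it was 273.1 and 283 CPM in WT-Veh, 380 and 508 CPM in ob/ob-Veh and 195.5 and 198.9 CPM in ob/ob-Rosi, 1.86-fold lower in ob/ob-Rosi than in ob/ob-Veh (log2 −0.89, SE 0.24, adjusted p = 0.0353), beside 22.3% of genes. Dendritic-like cells had 302.7 and 150.6, 402.3 and 436.9, and 87.1 and 65 CPM, a 3.56-fold fall (adjusted p = 0.0258) beside 10.8% of genes. NPVM-like cells also fell, 2.11-fold (adjusted p = 0.034), from 383.3 and 439.7 CPM to 148.7 and 149.3 CPM, beside 22.7% of genes. That NPVM-like call was lost after thinning, at Leiden resolution 0.5, in low-dissociation cells and without the low-count filter. The macrophage-like and dendritic-like calls were lost without any 1 of the 4 ob/ob libraries, and the macrophage-like call was lost without LAM-like and proliferating cells (log2 −0.60, adjusted p = 0.148). LAM-like cells numbered 763 and 617 in WT-Veh, 34 and 18 in ob/ob-Veh and 1115 and 1220 in ob/ob-Rosi. Another cluster, of PVM-like cells, held 2787 of 3536 and 2076 of 2568 macrophage-like cells in ob/ob-Veh and 7 to 56 cells in each other library, so different clusters were compared. Signs of stress moved with the group too. The median mitochondrial share over all kept cells was 9.05 and 8.06% in ob/ob-Veh against 2.17 to 5.89% in the other iWAT libraries, and macrophage-like Hspa1a was 480.9 and 419.3 CPM against 108.9 to 204.6 CPM. Macrophage-like dissociation medians were 2.16% in both ob/ob-Veh libraries, 0.99 and 2.11% in WT-Veh and 1.59 and 1.7% in ob/ob-Rosi. In low-dissociation cells the macrophage-like fall of Stat3 was not called (log2 −0.58, adjusted p = 0.0814), and the part of these signs was not otherwise tested. The difference of ob/ob-Veh from WT-Veh did not pass (log2 0.43, adjusted p = 0.255), where 14.9% of genes were called.

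In iWAT APC-like cells Socs3 changes had the same signs as in eWAT but were not called. Levels were 187.4 and 296.7 CPM in WT-Veh, 274.3 and 265.5 CPM in ob/ob-Veh and 154.5 and 99.6 CPM in ob/ob-Rosi, and neither comparison was called (log2 0.08 and −1.01, adjusted p = 0.931 and 0.163), beside 0.354% and 0.413% of all genes. The difference of these changes from those in eWAT was not called either (adjusted p = 0.246 and 0.372). Progenitor-like cells fell 3.11-fold (log2 −1.64, SE 0.30, adjusted p = 0.0302) in ob/ob-Rosi, from 331.6 and 309.9 CPM to 109.2 and 94 CPM, with WT-Veh at 236.7 and 366.1 CPM and 1.93% of genes called. This call too was lost without any 1 of the 4 ob/ob libraries. It also compares different cells, since 1 sub-cluster held 1028 of 1035 and 781 of 803 progenitor-like cells in ob/ob-Veh but 39 and 0 such cells in ob/ob-Rosi and 8 and 2 in WT-Veh. Like the eWAT sub-cluster described above, this iWAT one was led by Il6. It made up 31.1% and 21.4% of ob/ob-Veh APC-like cells and held 71.7% and 45.2% of their Socs3 UMIs. Its Socs3 level was 332.4 and 315.8 CPM, beside 1738 and 1543 CPM in the eWAT sub-cluster. iWAT macrophage-like Socs3 was 86.8 and 107.8 CPM in WT-Veh, 61.7 and 99.4 CPM in ob/ob-Veh and 85.3 and 76.9 CPM in ob/ob-Rosi. There ob/ob-Veh overlapped both other groups, and WT-Veh lay just above ob/ob-Rosi. Dissociation medians in iWAT APC-like cells were 1.01 and 1.76% in WT-Veh, 1.6 and 1.38% in ob/ob-Veh and 0.846 and 1.24% in ob/ob-Rosi, so ob/ob-Veh overlapped WT-Veh and lay above ob/ob-Rosi. In low-dissociation APC-like cells Socs3 was 34.2 and 47.3 CPM in ob/ob-Veh and 48.5 and 32.7 CPM in ob/ob-Rosi, which overlapped.

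Between depots, 5 of 32 pairs in 6 classes were called with the groups pooled, 1 higher and 4 lower in iWAT, beside 10.3% of all tests. Ptpn1 was 1.5-fold lower in iWAT APC-like cells (log2 −0.58, SE 0.13, adjusted p = 0.0101) and kept the call in 12 of 12 fits that each left out 1 library. Macrophage-marker genes moved with it in WT-Veh and ob/ob-Rosi, at 1768 to 2647 CPM of the APC-like sums in eWAT against 758.3 to 1214 CPM in iWAT. In ob/ob-Veh the markers were lower in eWAT (386.8 and 631.6 CPM against 1141 and 1086 CPM), and Ptpn1 was 42 and 48.5 CPM in eWAT and 36.4 and 34.8 CPM in iWAT (log2 −0.29). The part of these markers was not tested. Ptpn1 in B-like cells (1.93-fold lower, adjusted p = 0.047) and Stat3 in macrophage-like cells (1.35-fold higher in iWAT, adjusted p = 0.0499) kept it in 1 of 12 each. Socs3 was lower in iWAT dendritic-like cells (4.11-fold, adjusted p = 0.0002, 12 of 12 fits) and B-like cells (4.2-fold, adjusted p = 0.0215, 9 of 12 fits). The iWAT dendritic-like value rests on 4 to 55 UMIs per library. The eWAT dendritic-like class joined separate clusters (315 and 335 cells in WT-Veh replicate 1), while the iWAT class was a single cluster (71 cells in that group and replicate). The part of this difference was not tested. The iWAT B-like value rests on few UMIs, 86 and 3 in WT-Veh, 0 and 2 in ob/ob-Veh and 5 and 0 in ob/ob-Rosi. Each iWAT ob/ob library had only 20 to 81 B-like cells. The depots were deposited after different filters, with iWAT capped in UMIs and mitochondrial share, and depot and any difference in handling cannot be told apart.

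Within ob/ob-Veh, 3 of the 32 were lower in iWAT, all Socs3, beside 3.26% of all tests. The folds were 2.64 in APC-like cells (adjusted p = 0.0294), 3.76 in macrophage-like cells (adjusted p = 0.0129) and 12.4 in dendritic-like cells (adjusted p = 0.00263). The iWAT dendritic-like levels, 29.8 and 36.4 CPM, rest on 4 and 4 UMIs in 76 and 60 cells. That call was lost after thinning and without either iWAT ob/ob-Veh library. The APC-like and macrophage-like calls were lost in low-dissociation cells and without any single ob/ob-Veh library of either depot. In WT-Veh and ob/ob-Rosi 0 of 32 were called by edgeR (6 and 4 at an unadjusted p below 0.05), beside 1.97% and 1.44% of all tests. The unadjusted p was met by 2451 and 2211 of 14173 genes in APC-like cells and 3549 and 2519 of 14385 in macrophage-like cells. The difference between depots in the change itself was called for none of the 32, for ob/ob-Veh against WT-Veh (8 at an unadjusted p below 0.05, 2 by DESeq2, 0.271% of all tests) or for ob/ob-Rosi against ob/ob-Veh (5 at an unadjusted p below 0.05, 1 by DESeq2, 0.109% of all tests). Nearest was Socs3 in macrophage-like cells, whose change against WT-Veh was lower in iWAT by 2.09 on the log2 scale (SE 0.46, adjusted p = 0.061). For these differences an unadjusted p below 0.05 was met by 1159 and 1206 of 14173 genes in APC-like cells. In macrophage-like cells it was met by 1847 and 1676 of 14385.

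Across cell classes the 5 intracellular genes had different orders, described here with no test. Jak2 was highest in dendritic-like cells, with a median over libraries of 131.8 CPM in eWAT and 149.7 CPM in iWAT. It was lowest in macrophage-like cells in eWAT (18.9 CPM), while in iWAT macrophage-like and APC-like cells were level at the bottom (both 33.2 CPM). Ptpn2 was highest in T/NK/ILC-like cells (42 and 45.3 CPM) and lowest in APC-like cells (18.8 and 17.1 CPM). Socs3 was highest in APC-like cells (218.4 and 226.4 CPM). Stat3 was lowest in eWAT B-like cells (93.4 to 160.1 CPM). Ptpn1 was lowest in iWAT APC-like cells (34.8 to 50.4 CPM), and in both depots it was higher in endothelial-like than in APC-like cells in 6 of 6 libraries. Of 84 pairs of neighbouring classes in these orders, Lepr included, 81 overlapped between libraries. The exceptions were LEC-like over mesothelial-like cells for Lepr in eWAT, T/NK/ILC-like over endothelial-like cells for Socs3 in iWAT and neutrophil-like over macrophage-like cells for Ptpn1 in iWAT.

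The genes most like each member over the 91 sums are given as a description, by the same correlation. Ptpn1 was nearest to Lcp1, Arhgap30, Snx20, Cd53 and Grb2 (correlations 0.83 to 0.801), of which Lcp1 and Cd53 are pan-leukocyte genes. Jak2 was nearest to Tap2, Slc25a20, Ccr9, Kit and Flt3 (0.72 to 0.644), the last being the receptor that dendritic cell precursors need. Stat3 was nearest to Sbno2, Tmcc1, Neat1, Midn and Ddx3x (0.758 to 0.72), Socs3 to genes that included Cxcl1, Errfi1, Lpar1 and Snx18 (0.644 to 0.618), and Ptpn2 to Pabpc1, Hnrnpa2b1, AI504432, Crem and Spty2d1 (0.734 to 0.67).

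Among the ligands, interleukin-6 (Il6), which signals through Il6ra and gp130 (Il6st) to STAT3, was called in several classes. In eWAT APC-like cells Il6 was 41.7 and 14.6 CPM in WT-Veh, 248.3 and 143.1 CPM in ob/ob-Veh and 38.4 and 7.05 CPM in ob/ob-Rosi (log2 2.75, adjusted p = 0.0425, and log2 −3.13, adjusted p = 0.0237). It also rose in eWAT macrophage-like (log2 3.97, adjusted p = 0.000891) and progenitor-like cells (log2 4.67, adjusted p = 0.000681) and fell in both (log2 −4.56 and −4.13). Lif, another gp130 ligand, rose and fell in eWAT APC-like cells (log2 4.19, adjusted p = 0.00228, and log2 −3.62, adjusted p = 0.00284). The dissociation share was also highest in ob/ob-Veh in eWAT APC-like and macrophage-like cells. No low-dissociation values are given for Il6 or Lif. In iWAT APC-like cells Il6 stood at 28.7 and 48.1 CPM in WT-Veh, 146.2 and 144.1 CPM in ob/ob-Veh and 31.7 and 9.74 CPM in ob/ob-Rosi without a call (adjusted p = 0.0688 for ob/ob-Rosi against ob/ob-Veh). iWAT preadipocyte-like cells were called for Il6 in both comparisons (log2 3.61, adjusted p = 0.00923, and log2 −3.70, adjusted p = 0.00434), beside 6.49% and 10.2% of genes. Different sub-clusters were compared here. One of them held 77 of 84 and 66 of 116 preadipocyte-like cells in ob/ob-Veh, 130 of 245 and 93 of 757 in WT-Veh, and 39 of 1586 and 86 of 2921 in ob/ob-Rosi. Its Il6 level was 70.7 and 144.8 CPM in ob/ob-Veh and 2.13 to 12.2 CPM in the other 4 libraries. The leukocyte gene Ptprc moved with Il6 in the same sums, at 151.4 and 87.8 CPM in ob/ob-Veh, 80.5 and 13.6 CPM in WT-Veh and 19.8 and 12.9 CPM in ob/ob-Rosi, and its part was not tested.

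Of the 7 receptor chains of the interleukin-6 family, 6 were tested in macrophage-like cells. In eWAT Il6ra and Lifr rose in ob/ob-Veh and Il11ra1, the interleukin-11 receptor, fell, and in ob/ob-Rosi Il6ra and Lifr fell and Il11ra1 rose, beside 26.8% and 28.4% of all genes called. In iWAT Il6ra rose in ob/ob-Veh, and Il6ra, Il6st and Lifr fell in ob/ob-Rosi, beside 14.9% and 22.3%. Il6ra rose in eWAT (log2 1.16, SE 0.25, adjusted p = 0.00988) from 83.6 and 133.7 CPM to 291.5 and 256.2 CPM and fell to 104.4 and 95.9 CPM in ob/ob-Rosi (log2 −1.24, adjusted p = 0.00693). In iWAT it rose from 177.4 and 193.9 CPM to 532.8 and 375.6 CPM (adjusted p = 0.0406) and fell to 161.8 and 177.1 CPM (adjusted p = 0.0242). In eWAT macrophage-like cells the Lifr changes were log2 1.67 and −1.64 and those of Il11ra1 −0.69 (adjusted p = 0.047) and 0.98 (adjusted p = 0.0124). Il6st was lower in ob/ob-Rosi than in ob/ob-Veh in iWAT macrophage-like cells (log2 −0.78, SE 0.23, adjusted p = 0.045), and the same comparison was called in iWAT NPVM-like and dendritic-like cells.

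Of the SOCS and PIAS genes, 11 besides Socs3 were tested in eWAT macrophage-like cells, where 6 rose in ob/ob-Veh (Cish, Pias1, Socs2, Socs4, Socs6 and Socs7, list median log2 0.87) and 7 fell in ob/ob-Rosi (the same 6 and Socs1, list median −0.88), beside medians over all genes of 0.003 and −0.013 and shares of all genes called of 26.8% and 28.4%. Cish, an inhibitor of STAT5 signalling, changed most (log2 3.21 and −3.40). In eWAT APC-like cells Socs1, which blocks JAK kinases directly, rose (log2 1.65, SE 0.25, adjusted p = 0.00357) and fell (log2 −2.35, SE 0.26, adjusted p = 0.000612), as it did in progenitor-like cells (log2 2.68 and −3.40). No low-dissociation values are given for Cish or Socs1. In iWAT macrophage-like cells 1 of the 11, Socs6, rose in ob/ob-Veh and 5 fell in ob/ob-Rosi, beside 14.9% and 22.3% of all genes called.

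JAK and STAT relatives gave calls in the macrophage-like cells of both depots. In eWAT, Stat2 and Stat5b rose (log2 1.20 and 0.84) and fell (log2 −1.42 and −0.91), Tyk2 rose in ob/ob-Veh and Jak1 fell in ob/ob-Rosi. In iWAT, Stat2, a STAT of interferon signalling, rose (log2 1.73, adjusted p = 0.00672) and fell (log2 −1.98, adjusted p = 0.00445), and Jak3 and Tyk2 did the same (log2 1.15 and 1.01, then −1.09 and −1.05). Of the adaptor genes, Irs2 and Foxo1 rose in eWAT macrophage-like cells (log2 1.13 and 0.94) and fell with Irs1 in ob/ob-Rosi (log2 −1.55, −0.83 and −2.41).

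Of the 15 STAT3 target genes, those called did not move one way. In eWAT APC-like cells Bcl3, Bcl6, Myc and Vegfa rose in ob/ob-Veh while Il4ra (log2 −1.90, adjusted p = 0.00246) and Timp1 (log2 −4.62, SE 0.49, adjusted p = 0.000506), an inhibitor of matrix proteases, fell. In ob/ob-Rosi Bcl3, Cebpd, Myc, Pim1 and Vegfa fell and Ccnd1, Il4ra and Timp1 rose (Timp1 log2 4.65). In eWAT macrophage-like cells Bcl3, Bcl6, Cebpd, Hif1a and Pim1 rose in ob/ob-Veh while Ccnd1 and Timp1 fell.

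Over all 67 related genes, eWAT macrophage-like cells had 20 higher and 5 lower of 63 tested in ob/ob-Veh and 5 higher and 22 lower in ob/ob-Rosi. eWAT APC-like cells had 8 higher and 3 lower of 63, then 6 higher and 10 lower, and endothelial-like cells 0 and 2 of 56, then 1 and 1. In iWAT the macrophage-like counts were 8 higher and 1 lower of 63, then 1 higher and 15 lower, and APC-like cells had 0 and 0 of 64, then 1 and 1. Over all genes tested, 26.8% and 28.4% were called in eWAT macrophage-like cells, 7.33% and 8.32% in eWAT APC-like cells, 7.12% and 4.64% in eWAT endothelial-like cells, 14.9% and 22.3% in iWAT macrophage-like cells and 0.354% and 0.413% in iWAT APC-like cells. With both directions counted, the iWAT macrophage-like totals lie near these shares of all genes, but the directions differ. All genes there gave 874 higher and 1133 lower of 13460 in ob/ob-Veh, then 1641 higher and 1356 lower in ob/ob-Rosi. The related genes were thus mostly higher in ob/ob-Veh and mostly lower in ob/ob-Rosi, where all genes leaned the other way. This difference in direction was not tested. The related genes were fitted with LAM-like and proliferating cells included, and the part of those cells in these counts was not tested.

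Lep itself was read in traces, since adipocytes had been removed. In eWAT macrophage-like cells it was 0.791 and 1.20 CPM in WT-Veh (24 and 25 UMIs), 0.0802 and 0.317 CPM in ob/ob-Veh (1 and 4 UMIs) and 1.64 and 3.25 CPM in ob/ob-Rosi (37 and 121 UMIs). It was lower in ob/ob-Veh than in WT-Veh (log2 −2.46, SE 0.75, adjusted p = 0.0343) and higher in ob/ob-Rosi than in ob/ob-Veh (log2 3.83, SE 0.71, adjusted p = 0.00474). Per 100 UMIs of the adipocyte gene Adipoq over all kept eWAT cells, Lep had 28 and 42.5 UMIs in WT-Veh, 3.96 and 16.2 in ob/ob-Veh and 240 and 390.1 in ob/ob-Rosi. In iWAT the ratios were 20.1 and 31.6, 36.4 and 15.1, and 163.7 and 140.7, so both ob/ob-Rosi libraries of each depot stood above all others. Whether these UMIs were free RNA from adipocytes was not tested.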

How the data were processed

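Processed single-cell RNA counts of 12 libraries (2 depots, 3 groups, 2 mice per group and depot) were used. The authors deposited raw UMI counts per gene and cell, made with Cell Ranger 3.0.2 on mm10 after bcl2fastq 2.19.1.403, per the labels. The iWAT matrices held only cells under 22000 UMIs and 25% mitochondrial UMIs, and gene order was matched by symbol between depots. From these counts, cells with 700 to 22000 UMIs, 200 to 6000 genes and under 25% mitochondrial UMIs were kept. Each depot was clustered without integration in scanpy 1.11.5 (2000 variable genes without members and pathway genes, 25 components, 20 neighbours, Leiden resolution 1; APC-like cells again with 15 components at 0.6) and clusters were named from marker lists. How clusters were named was refined once they had been seen but before groups were compared. Doublets were scored with Scrublet and kept in the main analysis (1.11 to 5.39% of cells, 24.5% in iWAT WT-Veh replicate 1, an expected rate being used for eWAT WT-Veh replicate 2).

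Sums of UMIs over the cells of a class in a library were made where every library had 20 such cells, and were tested with edgeR 4.0.16 (TMM, filterByExpr, quasi-likelihood test, Benjamini-Hochberg adjustment over all genes of a class) in R 4.3.3. A fit over 6 libraries tested the groups within a depot and a fit over 12 tested depots. The fit over 12 treated all libraries as independent, with no term for mouse, although the depots may share mice. Classes were not tested against each other. Shares have exact 95% intervals, which cover counting error only. On simulated counts, 4-fold and 2-fold changes were put into 100 genes each. The eWAT APC-like fit (13226 genes) recovered 75 and 7, and the iWAT APC-like fit (13570 genes) 69 and 3. The eWAT endothelial-like fit (10469 genes) recovered 75 and 23 and the iWAT endothelial-like fit (12552 genes) 42 and 2. Most 2-fold changes were thus missed in these simulated fits. In the same order, these fits also called 10 of 13026, 3 of 13370, 15 of 10269 and 0 of 12352 unchanged genes. Macrophage-like cells were not simulated. The eWAT APC-like and endothelial-like fits of the data called 969 and 745 genes in ob/ob-Veh against WT-Veh, more than were changed here. Recovery in the data may therefore differ.

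The members and lists were chosen with earlier results of these data known. Genes named beside the members were the 5 most alike per member, the called pathway genes with at most the 3 largest changes per list and comparison, and Lep, Leprot, Il6, Il6st, Il6ra, Fos, Junb and Hspa1a. Some single genes that meet this rule are not reported here. Where all called genes of a list are named, those beyond the rule were named after their values were seen. Alternatives were DESeq2 1.42.0, library totals, no low-count filter, a replicate block, cells thinned to 700 UMIs, doublets removed, Leiden resolutions 0.5 and 2, cells at or below the median dissociation share and each library left out. Leaving out the Il6-led sub-cluster, or LAM-like and proliferating cells, was chosen after seeing the data.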

Additional observations from a re-analysis of the deposited data

Results flagged for a closer look

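In macrophage-like and progenitor-like cells, the change itself differed between depots for 5 related genes by the interaction test (edgeR, both depots in 1 fit, iWAT change minus eWAT change), where 1% and 0% of all genes were called in macrophage-like cells and 0.71% and 0.742% in progenitor-like cells for ob/ob-Veh against WT-Veh and for ob/ob-Rosi against ob/ob-Veh. Among macrophage states, Il6 in NPVM-like cells (both comparisons) and Lbp in PVM-like cells (ob/ob-Veh against WT-Veh) were also called. Il6 in macrophage-like cells changed less in iWAT in ob/ob-Veh against WT-Veh, by a log2 difference of −3.886 (SE 0.585, adjusted p = 0.0206). Its eWAT levels were 7.06 and 5.91 CPM in WT-Veh, 112.2 and 119.9 CPM in ob/ob-Veh and 6.90 and 1.86 CPM in ob/ob-Rosi, and its iWAT levels were 27 and 34.2, 34.3 and 42.3, and 17.3 and 19.4 CPM. Cish in macrophage-like cells gave a log2 difference of −3.964 (SE 0.58, adjusted p = 0.0206), with eWAT levels of 0.857 and 1.83, 15.9 and 11.6, and 1.24 and 1.02 CPM and iWAT levels of 3.77 and 3.76, 3.07 and 2.06, and 2.62 and 1.92 CPM. Dissociation medians of macrophage-like cells were 2.87 and 2.41% in eWAT ob/ob-Veh against 0.649 to 0.934% in the other eWAT libraries. In iWAT they were 2.16% in both ob/ob-Veh libraries and 0.99 to 2.11% in the others. Their part in the Il6 and Cish differences was not tested.

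In progenitor-like cells Timp1 gave log2 differences of 5.153 (SE 0.915, adjusted p = 0.0187) for ob/ob-Veh against WT-Veh and −4.398 (SE 0.845, adjusted p = 0.0277) for ob/ob-Rosi against ob/ob-Veh. eWAT Timp1 was 970 and 485.2 CPM in WT-Veh, 37.5 and 22.5 CPM in ob/ob-Veh and 386 and 1308 CPM in ob/ob-Rosi, while iWAT Timp1 lay between 8.55 and 27.5 CPM in all 6 libraries. Myc gave −2.025 (SE 0.387, adjusted p = 0.0255) for ob/ob-Veh against WT-Veh, with a log2 rise of 2.75 in eWAT and 0.78 in iWAT. Lbp gave −2.009 (SE 0.407, adjusted p = 0.0354) for ob/ob-Rosi against ob/ob-Veh, with log2 values of 1.80 in eWAT and −0.26 in iWAT. In each depot, the progenitor-like cells of ob/ob-Veh came from another sub-cluster than those of the other groups, and that part in the last 3 genes was not tested. Groups of 2 libraries are too small for a check of single outlying samples.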

How the results depend on the processing

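The counts below are pairs of a member gene and a cell class that were called. For ob/ob-Veh against WT-Veh in eWAT (6), cells low in dissociation genes gave 2, no low-count filter 10 and the replicate block 11, and leaving out 1 library gave 0 to 9. For ob/ob-Rosi against ob/ob-Veh in eWAT (9), low-dissociation cells gave 1 and leaving out 1 library 4 to 10. For the same comparisons in iWAT, the first (0) became 1, Lepr in endothelial-like cells, at Leiden resolution 0.5, with DESeq2, with library totals, without the filter and with the replicate block, and 0 to 1 with 1 library left out. The second (2) became 1 with thinned cells and at both other resolutions, 0 in low-dissociation cells and 0 to 4 with 1 library left out. ob/ob-Rosi against WT-Veh (0 in both depots) gave 0 to 0 in eWAT and 0 to 2 in iWAT. iWAT against eWAT (5) became 1 with thinned cells, 3 with doublets removed, at both other resolutions and in low-dissociation cells, and 2 to 7 with 1 library left out. The difference between depots (0) became, for ob/ob-Veh against WT-Veh, 1 at resolution 0.5, 2 with DESeq2, 3 without the filter, 1 with the replicate block and 0 to 2 with 1 library left out. For ob/ob-Rosi against ob/ob-Veh it became 1 at resolution 2, with DESeq2, without the filter and with the block, and 0 to 0 with 1 library left out. The replicate block lost none of the 35 called single results and moved no other count past 1.5 times (13 for ob/ob-Rosi against ob/ob-Veh in eWAT, 7 between depots). Among results that had not been called, the block called Ptpn1 in eWAT APC-like cells (adjusted p = 0.0355 and 0.0251) and endothelial-like cells (ob/ob-Rosi against ob/ob-Veh, 0.0414), Jak2 in eWAT T/NK/ILC-like cells (0.0367 and 0.0199), Socs3 in 4 further eWAT classes or states and Ptpn2 in eWAT PVM-like and NPVM-like cells, and Lepr in iWAT endothelial-like cells (ob/ob-Veh against WT-Veh, 0.0366). The labels tie the 2 replicate numbers to no shared litter or batch. Correlations of same-numbered deviations between groups were 0.0889 to 0.315 over 4 eWAT classes, above 0.1 in APC-like, macrophage-like and endothelial-like cells. In iWAT they were 0.238 to 0.584 between WT-Veh and ob/ob-Rosi, and −0.0805 to 0.112 for pairs with ob/ob-Veh. Some clusters also followed the replicate number. An eWAT PVM-like cluster held 2788 and 1545 replicate 1 cells of WT-Veh and ob/ob-Rosi, and 141 and 42 replicate 2 cells. For an iWAT progenitor-like sub-cluster these counts were 111 and 722, then 7 and 29. With 2 numbers this does not establish pairs, so the block is given here alone. Signs turned for 3 results, all in low-dissociation cells and in ob/ob-Rosi against ob/ob-Veh in eWAT, with log2 values of 0.007 for Socs3 in APC-like cells and 0.096 and 0.057 for Socs3 and Stat3 in NPVM-like cells. The Lepr level in eWAT LEC-like cells (79.4 CPM pooled) was 115.5 CPM after thinning. Of the called single results, 32 of 35 kept the call with DESeq2, 33 of 35 with library totals, 18 of 32 after thinning, 31 of 33 without doublets, 6 of 27 in low-dissociation cells and 157 of 240 over the fits that left out 1 library. Library totals in place of TMM moved the median of all genes in macrophage-like cells from 0.003 to 0.186 (ob/ob-Veh against WT-Veh) and from −0.013 to −0.228 (ob/ob-Rosi against ob/ob-Veh) in eWAT. Few Lepr UMIs limit its tests, and 2 mice per group limit every test. Except where stated, the cause of a change was not tested.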

Other observations

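Adipocyte transcripts were read in other classes. In eWAT endothelial-like cells the summed level of the adipocyte marker list was 1027 and 623.4 CPM in ob/ob-Veh against 14.7 to 37.2 CPM in the other 4 libraries. Leprotl1, a relative of Leprot, was lower in eWAT macrophage-like cells in ob/ob-Veh than in WT-Veh (log2 −0.83, adjusted p = 0.0158) and higher in ob/ob-Rosi than in ob/ob-Veh (log2 1.1, adjusted p = 0.00474, edgeR). Ptprj, a receptor phosphatase, rose (log2 2.77) and fell (log2 −3.46) in the same comparisons in iWAT preadipocyte-like cells, where 2 leukocyte genes of the same list, Ptprc (log2 −2.72, adjusted p = 0.0342) and Ptpn6 (log2 −2.44, adjusted p = 0.029), fell with it in ob/ob-Rosi. Their part was not tested. Il6ra was higher in iWAT than in eWAT APC-like cells (log2 1.51, SE 0.16, adjusted p = 6.09e-05), and Lifr was higher in iWAT macrophage-like cells (log2 1.25).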
